A study of Rattus norvegicus with 12 samples.

Results

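Genes for the uptake of fatty acids, their carriage inside the cell and their release from lipoproteins were followed in the liver of obese ZSF1 rats. Members were the count rows whose symbol was Cd36, Fabp1, Fabp2, Fabp4, Fabp5, Fabp7, Lpl or Lipc. Of these 8 symbols, 7 had a row among the 16478 gene rows, and Fabp5 is not analysed here. All 7 passed the filter on low counts. The 2 groups were 6 females and 6 males, all adult, obese, untreated, fed rat chow without restriction and 16 weeks old, with 1 liver library per animal. ZSF1 rats come from crossing strains with mutant leptin receptor genes, and obese animals of the strain are known to inherit a defective copy from each parent, so both sexes share that background. Lean animals were not analysed here.

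Long-chain fatty acids reach the liver bound to albumin and, as triglyceride, in lipoproteins. CD36 is a membrane protein that binds them at the cell surface, and the fatty acid binding proteins (FABPs) are small carriers that hold them in the cytosol. Lipoprotein lipase and hepatic lipase are secreted enzymes that split lipoprotein lipid on the vessel wall. FABP1 is the liver form, FABP2 the intestinal form, FABP4 a form of adipocytes and macrophages and FABP7 a form best known from brain. Hepatic lipase, the product of Lipc, is made by hepatocytes, whereas lipoprotein lipase, the product of Lpl, comes mainly from muscle and fat in the adult.

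Libraries held 6763879 to 24837602 counts over genes in females and 11381428 to 29232871 in males. Values are counts per 1000000 (CPM) scaled by TMM factors, which even out composition between libraries, and 3 counts correspond to 0.105 to 0.416 CPM. Each fold change sets females over males as a log2 value with its standard error (SE), from edgeR's quasi-likelihood test. A gene is said to be called where its Benjamini-Hochberg adjusted p over the 9943 genes tested was under 0.05. The hepatocyte marker Alb averaged 205679 CPM in females and 161851 in males. Of 12 hepatocyte markers tested it was the 1 called higher in females, while 5 were called higher in males (Serpina1, Ttr, Fgb, Fga and Apoh). Among all genes tested, 20.5% were called higher in females and 22.7% in males. The acinar gene Cpa1 ranged from 2.37 to 36.1 CPM in females and had 3 counts in all males together, whereas Cela2a, the most counted of the other 5 pancreatic markers, had 25 counts in females and 27 in males, and Prss1 and Prss2 had 0. The part of these differences in the values below was not tested. Male 4 and female 12 are named below beside the values they moved most, because earlier results had shown both apart from their groups. No transcript lengths were at hand, so levels of different genes are not compared.

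Cd36 was the member called as different between the sexes, and the other 6 did not pass the test. It was higher in females by 1.67 (SE 0.24, edgeR adjusted p = 0.00016), or 3.19-fold. The count of 1 of 7 members called stands beside 43.2% of all genes tested, so the share of members called lay below the share of all genes. Higher in females alone were 20.5% of all genes and higher in males 22.7%. The median log2 fold change was 0.20 over the 7 members and -0.013 over all genes tested.

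**Figure D1:**
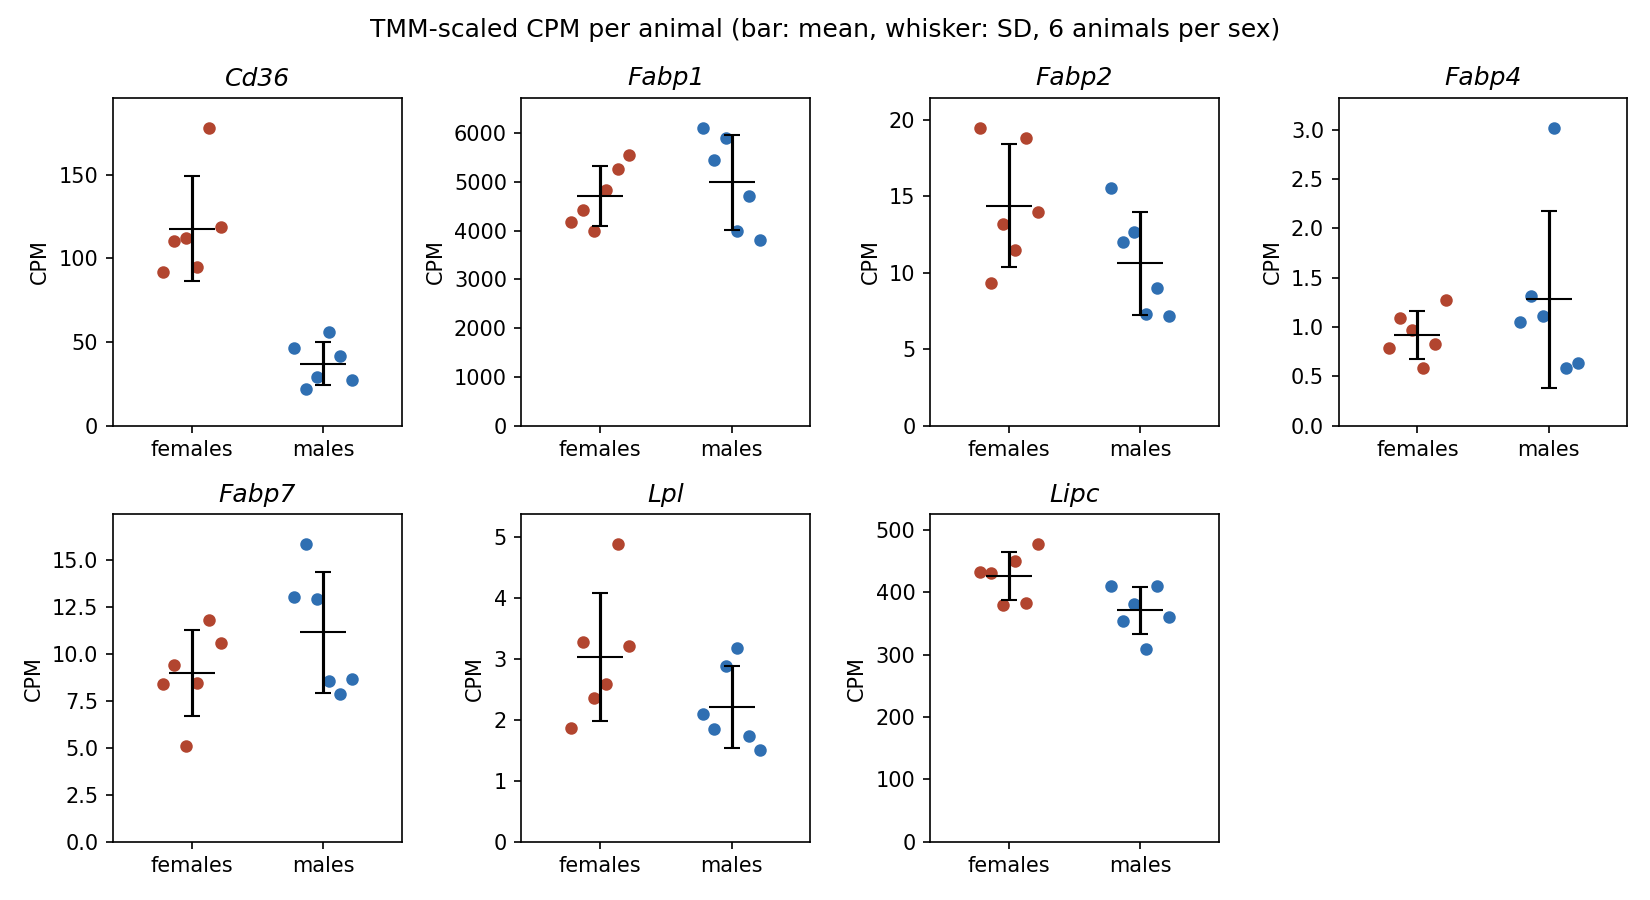
CPM of each member (vertical axes, linear, starting at 0) in 6 females (red) and 6 males (blue), 1 point per animal in order of animal number, with the mean as a bar and the SD as a whisker. The Cd36 points of the sexes do not overlap, with all females at 91.8 CPM or more and all males at 56.0 or less, while the points of the other 6 genes overlap.

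Promoter sequences are shown for Cd36, the member called. Those of 3 further members, which held a direct repeat of the kind that nuclear receptors such as PPAR-alpha and HNF4-alpha bind, are shown too. They come from RefSeq, assembly GRCr8, in which 5 of the 7 members had an entry, and each is the 250 bases before the annotated start, 5′ to 3′ on the gene's strand. Capitals mark matches to TGNNCTNTGNNCT on either strand. The Cd36 stretch is chr4:18246332-18246581 (plus strand), that of Fabp1 is chr4:104749090-104749339 (plus strand), that of Fabp2 is chr2:213724379-213724628 (plus strand) and that of Lipc is chr8:80516286-80516535 (minus strand).
Cd36: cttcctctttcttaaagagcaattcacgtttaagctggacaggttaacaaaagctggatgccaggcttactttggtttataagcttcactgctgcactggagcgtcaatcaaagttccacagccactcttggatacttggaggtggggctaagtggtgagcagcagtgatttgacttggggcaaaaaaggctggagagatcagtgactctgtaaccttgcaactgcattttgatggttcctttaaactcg
Fabp1: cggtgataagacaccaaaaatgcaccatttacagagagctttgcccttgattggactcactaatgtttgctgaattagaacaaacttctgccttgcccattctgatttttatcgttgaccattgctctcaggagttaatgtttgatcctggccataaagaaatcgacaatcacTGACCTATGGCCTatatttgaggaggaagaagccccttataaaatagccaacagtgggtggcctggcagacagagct
Fabp2: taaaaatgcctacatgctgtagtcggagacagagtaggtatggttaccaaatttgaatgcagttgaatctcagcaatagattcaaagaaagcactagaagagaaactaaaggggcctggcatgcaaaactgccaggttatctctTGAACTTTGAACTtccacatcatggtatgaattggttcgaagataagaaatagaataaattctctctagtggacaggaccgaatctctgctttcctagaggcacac
Lipc: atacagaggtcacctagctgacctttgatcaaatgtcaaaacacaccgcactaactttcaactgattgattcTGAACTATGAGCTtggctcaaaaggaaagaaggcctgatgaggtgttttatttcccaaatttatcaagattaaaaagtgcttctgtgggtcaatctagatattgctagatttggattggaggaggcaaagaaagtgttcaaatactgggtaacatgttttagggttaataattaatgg

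The repeat began 77 bases before the start of Fabp1, 106 before that of Fabp2 and 178 before that of Lipc. These letters are in 2.23% of the 33469 promoters of the table, and they are not in the windows of Cd36 and Fabp7. A single unit, TGACCT, which in Fabp1 overlaps the repeat, was found in the windows of Fabp1, Fabp7 and Lipc and is in 14.1% of all promoters. The element TTCNNNGAA, which STAT proteins bind and which reads alike on both strands, was found 170 bases before the start of Fabp2 and is in 7.67% of all promoters. A TATAAA box lay 40 bases before the start of Fabp1, and its letters stood on the opposite strand of the Cd36 window. It is in 12.9% of all promoters. A match describes these letters and is no measured site.

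Cd36 ranged from 91.8 to 178 CPM in females with a median of 111, and from 22.1 to 56.0 CPM in males with a median of 35.5. Every female thus stood above every male, which held for 22.8% of all genes tested in one direction or the other. The highest female value, 178 CPM, was that of female 12, and the other females reached 119 at most. Among males, male 4 was highest at 56.0 CPM and male 2 lowest at 22.1. The means were 118 ± 31.4 CPM in females and 37.1 ± 13.03 in males (SD, n = 6 each), and the 95% interval of the log2 fold change was 1.15 to 2.19. The call stood in each alternative tried, with log2 fold changes from 1.52 without female 12 to 1.84 without male 4.

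A neighbouring gene followed Cd36 closely. RGD1565355, now named Cd36l1 (a Cd36-like gene), is the next gene after Cd36 in the order of the RefSeq GRCr8 gene table. It was also higher in females, by 1.59 (SE 0.20, edgeR adjusted p = 4.29e-05), with 22.6 to 38.4 CPM in females and 5.69 to 11.9 in males. Of all genes tested with at least 5 CPM, it had the highest Pearson correlation with Cd36 after each sex mean was subtracted, 0.97 over 12 libraries. For each count of RGD1565355 there were 4.02 to 4.63 counts of Cd36 in females and 3.80 to 4.77 in males. How similar the 2 transcripts are was not measured, and the sources used here do not give how reads that fit both were counted, so the division of reads between them is uncertain. With their counts summed into 1 row the fold change was 1.65 (edgeR adjusted p = 0.000147).

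**Figure D2:**
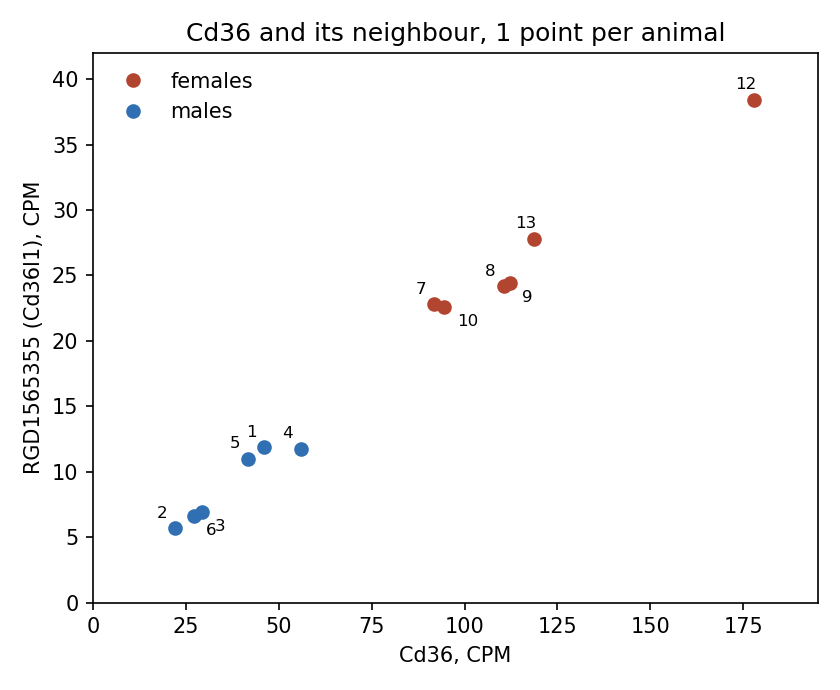
Cd36 (horizontal axis, CPM) against RGD1565355, now Cd36l1 (vertical axis, CPM), 1 point per animal with its number, females in red and males in blue. Both genes rise together from male 2 at 22.1 and 5.69 CPM to female 12 at 178 and 38.4 CPM, with the females above the males on both axes.

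Cd36 is also made by endothelial cells and macrophages, so their markers were read beside it. Of 8 endothelial markers tested, 6 were called higher in females, against 20.5% of all genes, and 0 in males. Their summed level was 112 to 135 CPM in females and 47.8 to 112 in males, with male 5 highest among males. Of 13 macrophage markers tested, 3 were called higher in females, near the 20.5% of all genes. Without male 4 there were 11, in a fit that called 2389 of 9972 genes higher in females and 4627 in either direction. The 1 called higher in males with all animals kept, Cd14 (log2 -0.16, edgeR adjusted p = 0.0457), was not called in 18 of 21 alternatives. Their sum was 303 to 435 CPM in females and 207 to 323 in 5 males, with 630 in male 4. Of 2 adipocyte markers tested, Cfd was called higher in females (6.18 against 3.20 CPM) and Cidea higher in males (19.4 against 13.06 CPM), the latter lost in 10 of 21 alternatives. Adipoq, Retn and Lep, also adipocyte markers, had 4, 2 and 0 counts in all 12 libraries together. The part of endothelial cells and macrophages in the Cd36 difference was not tested, and in whole liver fewer cells of a type and less RNA per cell cannot be told apart.

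The liver form Fabp1 stood at nearly the same level in both sexes. It ranged from 3992 to 5550 CPM in females (median 4636) and from 3806 to 6111 CPM in males (median 5082), so the ranges overlapped widely. The log2 fold change was -0.085 (SE 0.13, edgeR adjusted p = 0.632), and its 95% interval, -0.36 to 0.19, leaves room for a modest difference in either direction. The spread within males was the wider, with an SD of 977 CPM against 618 in females.

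Fabp2, the intestinal carrier, was low in these livers. It ranged from 9.34 to 19.5 CPM in females (median 13.6) and from 7.14 to 15.5 CPM in males (median 10.5). Means were 14.4 ± 4.02 and 10.6 ± 3.35 CPM (SD, n = 6 each), and the log2 fold change of 0.44 (SE 0.22, edgeR adjusted p = 0.126) did not pass the test. Without male 1, the highest male, it was 0.57 with an adjusted p of 0.0492. Enterocyte markers were near 0, with a summed level of 0.349 CPM at most and no count of Alpi, an intestinal phosphatase gene.

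Fabp7, the brain form, ranged from 5.13 to 11.8 CPM in females (median 8.94) and from 7.89 to 15.9 CPM in males (median 10.8). Means were 8.96 ± 2.29 and 11.2 ± 3.23 CPM (SD, n = 6 each), and the log2 fold change of -0.29 (SE 0.20, edgeR adjusted p = 0.269) did not pass the test. Counts of the gene ran from 37 in female 9, the shallowest library, to 290 in male 2. Sox10, a defining glial gene, had no count in any library, and of 3 glial markers tested 1, Mbp, was called, higher in females. Summed glial markers were 17.3 to 25.2 CPM in females and 12.6 to 14.9 in males, the opposite order to the Fabp7 means, and their part in its values was not tested.

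Fabp1, Fabp2 and Fabp7 shared an order among the males. Fabp1 was at 6111, 5457 and 5900 CPM in males 1, 2 and 3 and at 3998, 4707 and 3806 CPM in males 4, 5 and 6. Fabp2 was at 15.5, 12.0 and 12.7 CPM in males 1, 2 and 3 and at 7.30, 8.98 and 7.14 CPM in males 4, 5 and 6. Fabp7 was at 13.02, 15.9 and 12.9 CPM in the first 3 males and at 8.56, 7.89 and 8.68 CPM in the other 3. For each of these genes the lowest of males 1, 2 and 3 therefore stood above the highest of males 4, 5 and 6. The split was not particular to them. Slc27a2, Sult2a1 and Rbp7, described below, divided the males in the same way. The share of all genes that did so was not counted. In the females Fabp1 and Fabp7 had a similar order, lowest in female 9, then female 7, and highest in females 12 and 13. Fabp2 departed from it, with female 8 lowest and female 7 highest. After each sex mean was subtracted, the Pearson correlation over 12 libraries was 0.78 between Fabp1 and Fabp7, 0.66 between Fabp1 and Fabp2 and 0.53 between Fabp2 and Fabp7. This order was noticed in the data, the libraries share their normalization, and the labels tie the animal numbers to no batch, litter or day.

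**Figure D3:**
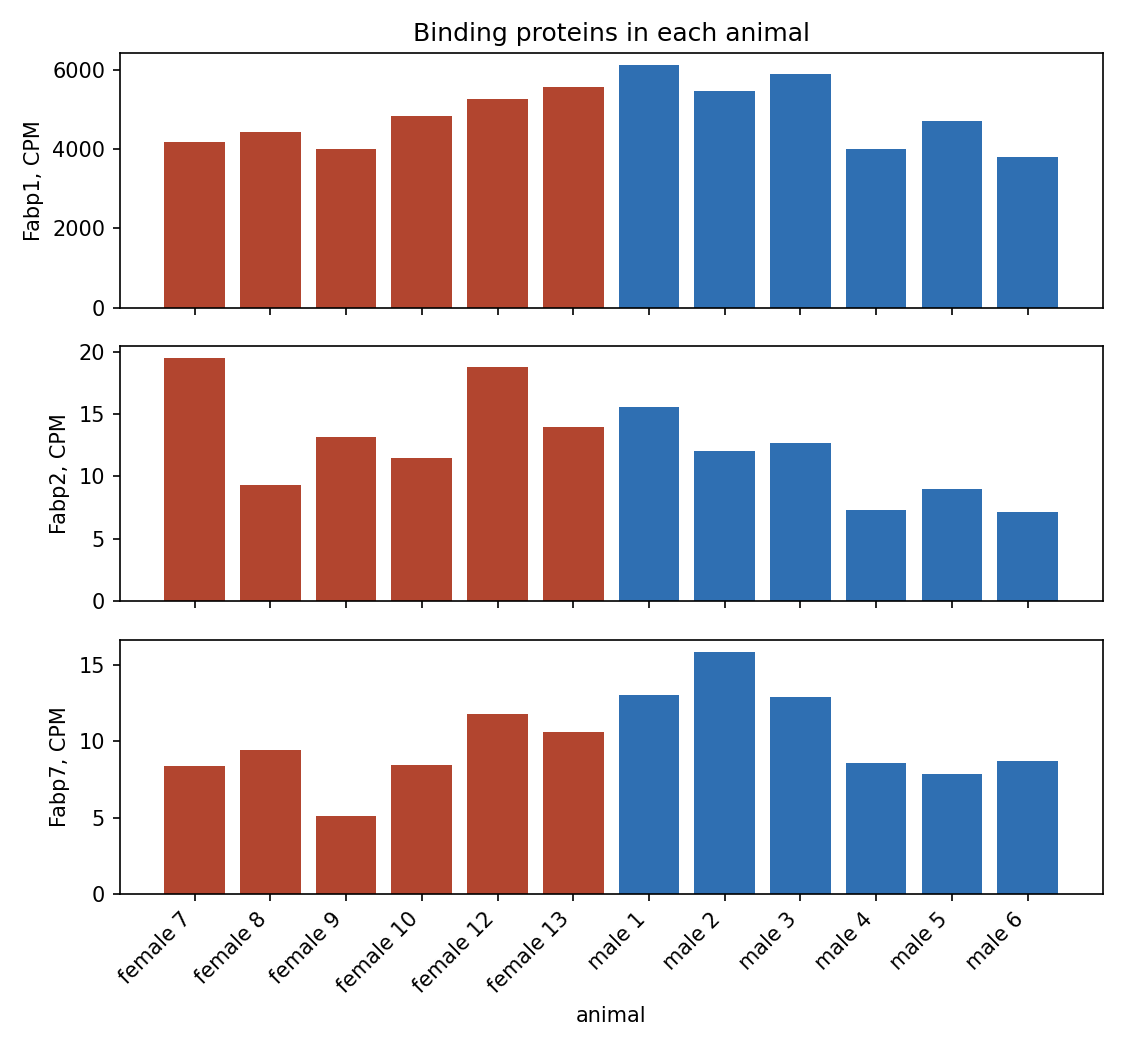
CPM of Fabp1, Fabp2 and Fabp7 (vertical axes, linear from 0) in each of 12 animals (horizontal axis), females in red and males in blue. In all 3 panels males 1, 2 and 3 stand above males 4, 5 and 6, for Fabp1 with 5457 CPM or more against 4707 or less.

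Fabp4, the carrier of adipocytes and macrophages, was close to the limit of these libraries, with 7 to 30 counts in a female and 8 to 55 in a male. It ranged from 0.584 to 1.27 CPM in females (median 0.899) and from 0.579 to 3.02 CPM in males (median 1.078). The male maximum was that of male 4, and the next male stood at 1.31 CPM, close to the top of the female range. The log2 fold change was -0.47 (SE 0.38, edgeR adjusted p = 0.344), and without male 4 it was 0.024 (adjusted p = 0.953). Male 4 also had the highest summed macrophage markers, at 630 CPM, and neutrophil markers, at 26.7 CPM against 3.58 at most in the other libraries, and their part in its Fabp4 value was not tested.

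Lpl, the gene of lipoprotein lipase, was low as well, with 17 to 76 counts in a library. Muscle markers, read because muscle makes the enzyme, summed to 1.11 CPM at most. It ranged from 1.88 to 4.89 CPM in females (median 2.90) and from 1.51 to 3.18 CPM in males (median 1.98). The highest female was female 12 and the highest male was male 4, the same animals that were highest for Cd36 in their sex. Summed macrophage markers were also highest in male 4 among males, at 630 CPM. Among females they were highest in female 8, at 435 CPM, against 421 in female 12. The part of macrophages in the Lpl values was not tested. The log2 fold change of 0.48 (SE 0.24, edgeR adjusted p = 0.121) did not pass the test. Without male 4 it was 0.64 and was called (adjusted p = 0.0306), and without female 12 it was 0.30 (adjusted p = 0.303). Within sex, Lpl and Cd36 had a Pearson correlation of 0.63 over 12 libraries.

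Lipc, the gene of hepatic lipase, had a small difference at the edge of the test. It ranged from 380 to 477 CPM in females (median 431) and from 310 to 410 CPM in males (median 370), with 4 females above all males. Means were 425 ± 38.3 and 371 ± 38.2 CPM (SD, n = 6 each). The log2 fold change was 0.20 (SE 0.082, 95% interval 0.023 to 0.37), with an unadjusted p of 0.0294 and an adjusted p of 0.0644 in edgeR. It was called with upper quartile factors (0.23, adjusted p = 0.0361), with library totals (0.22, 0.0476), with DESeq2 (0.21, 0.0355), with a filter of mean 1 CPM (0.21, 0.0491), without male 4 and female 12 together (0.19, 0.0337) and when female 9, female 12, male 1 or male 5 was left out (0.23 to 0.24, adjusted p from 0.0387 to 0.048). Male 4 held the lowest Lipc value, 310 CPM, and without it the fold change was 0.16 (adjusted p = 0.0864).

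For each member the 3 tested genes most like it within sex, by Pearson correlation over 12 libraries, were listed. After RGD1565355, those nearest to Cd36 were Gjb2, a gap junction gene (0.92), and Lepr, the leptin receptor gene (0.87). Lepr was itself higher in females, by 1.99 (edgeR adjusted p = 1.86e-06), while Gjb2 at 79.8 and 55.3 CPM was not called (adjusted p = 0.0562). Nearest to Fabp1 were Peci, now named Eci2 (0.88), Lias (0.88) and Pex11a (0.86), which encode a fatty acid isomerase, a lipoic acid synthase and a peroxisome membrane protein. Pex11a ranged from 30.3 to 65.6 CPM in males and did not differ between the sexes by the test (adjusted p = 0.461). The sulfotransferase gene Sult2a1 was second nearest to Fabp7 (0.94 within sex) although it was higher in females by 1.88, and over the 12 libraries without the sex means removed their correlation was -0.053. Nearest to Lipc was Vwa5a (0.92), to Lpl Slc12a7 (0.92), to Fabp2 Gpbp1 (0.93), to Fabp4 Mesdc2 (0.96) and to Fabp7 Plekha1 (0.96). These are the highest among all genes compared and are given as a description, since the libraries share their normalization.

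Relatives of the FABPs were mostly absent or low. Of 10 further genes of the intracellular lipid-binding family looked up, 9 had a row and 3 could be tested, of which 2 were called higher in males and 0 in females, against 22.7% and 20.5% of all genes. Rbp7, a retinol carrier known from fat and endothelium, ranged from 1.52 to 2.42 CPM in females and from 3.33 to 4.67 CPM in males, with no overlap (log2 -1.06, SE 0.14, edgeR adjusted p = 4.65e-05). Fabp12, low at 0.946 against 1.38 CPM and 6 to 42 counts in a library, was lower in females by -0.53 (edgeR adjusted p = 0.0291). This call was lost without female 8, female 12, male 3 or male 6 (adjusted p from 0.0562 to 0.0721). It was also lost with DESeq2 (0.073) and with a filter of 1 count (0.0545). Fabp6, Fabp9, Pmp2 and Crabp1 had 0 counts in all 12 libraries, which in the deepest library allows up to 0.105 CPM. The heart form Fabp3, at 0.908 and 0.777 CPM, was not called (adjusted p = 0.577).

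Among other uptake and activation genes, acyl-CoA synthetases were the ones that differed most. Of 17 tested, 6 were called higher in females and 3 in males, against 20.5% and 22.7% of all genes. Acsl3, Acsl5 and Acsl4, which link fatty acids to coenzyme A, were higher in females by 1.49, 1.29 and 1.02, or 2.81-fold, 2.45-fold and 2.03-fold. Acsl5 ranged from 781 to 1197 CPM in females and from 351 to 514 in males, and none of the 3 genes overlapped between the sexes. Acsl1, the most abundant of those not called, stood at 2972 and 2864 CPM (log2 0.053, edgeR adjusted p = 0.59). The transport protein gene Slc27a2 (FATP2) was lower in females by -0.32, at 1204 against 1508 CPM, and Slc27a5 (FATP5) was not called (586 and 549 CPM). Cav2, a caveolin gene of endothelium and fat, was higher in females by 0.95, with a single overlapping male value, 7.63 CPM in male 4.

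Of 9 proteins that serve the lipases tested, 2 were called higher in females and 3 in males, near the 20.5% and 22.7% of all genes. Apoc2, the activator of lipoprotein lipase, ranged from 955 to 1173 CPM in females and from 1211 to 1699 in males (log2 -0.44, SE 0.09, edgeR adjusted p = 0.00085), and Apoc1, which restrains the enzyme, was lower in females by -0.83, at 1742 ± 73.2 against 3089 ± 341 CPM. Pcsk6, a convertase that can cleave lipases, was higher in females by 0.88 (91.1 ± 10.6 against 49.4 ± 7.13 CPM). Furin, another convertase gene of this list, went the other way, by -0.26 (edgeR adjusted p = 0.00585). It stood at 215 ± 14.5 CPM in females against 257 ± 19.6 in males, with no overlap. Angptl4, an inhibitor of lipoprotein lipase, was higher in females by 0.37 (adjusted p = 0.0371), and this call was lost without female 12, female 13, male 1, male 2, male 5 or male 6 (adjusted p from 0.0588 to 0.0833). Without female 13, male 1, male 2, male 5 or male 6 the count higher in females was 1. Apoa5 was not called (728 and 701 CPM). Gpihbp1, the capillary anchor of lipoprotein lipase, averaged 0.297 and 0.241 CPM and endothelial lipase, Lipg, had 3 counts in all, so both were left out by the filter.

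Of 6 receptors and helper proteins of lipoprotein uptake tested, 2 were called higher in females and 2 in males, against 20.5% and 22.7% of all genes. Scarb1, the HDL receptor gene, was lower in females by -0.51 (SE 0.058, edgeR adjusted p = 9e-06), at 69.8 ± 5.32 CPM in females and 99.3 ± 4.48 in males with no overlap. Lrpap1, a receptor chaperone gene, was higher in females by 0.33, and Sdc1, a proteoglycan gene of the hepatocyte surface, by 0.20 (adjusted p = 0.0339). Lrp1, the remnant receptor gene, averaged 577 CPM in females and 574 in males and was not called, with 894 CPM in female 12 and 729 in male 4, the highest of their sexes. Without female 12 its fold change was -0.16 (adjusted p = 0.304). The number called higher in females was 1 without female 9, female 10, male 1, male 2 or male 3, and the number called higher in males was 1 without female 8, without male 6, and without male 4 and female 12 together.

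Of 24 transcription regulators tested, 9 were called higher in females and 5 in males, against 20.5% and 22.7% of all genes. Among PPAR genes, Ppard, a broadly expressed fatty acid receptor gene, ranged from 14.8 to 44.1 CPM in females and 7.63 to 14.0 in males (log2 1.68, SE 0.26, edgeR adjusted p = 0.000243). Pparg, the adipocyte regulator, averaged 0.607 ± 0.386 CPM in females against 2.92 ± 0.722 in males (log2 -2.17, SE 0.31, edgeR adjusted p = 6.71e-05). Its counts were low, with 3 to 32 in a female, the most in female 10, and 24 to 107 in a male. Ppara, the main fatty acid receptor gene of hepatocytes, was not called (18.6 and 23.4 CPM, edgeR adjusted p = 0.315). Female 12 held its highest female value, 33.7 CPM, where the other females held 12.7 to 18.5. Male 4 held its lowest male value, 13.4 CPM, where the other males held 19.9 to 33.4. Apart from these animals, the Ppara values of the sexes did not overlap and the males were higher. Hnf4a, the gene of HNF4-alpha, was higher in females by 0.57 (SE 0.14, edgeR adjusted p = 0.00415), with overlapping values. The STAT genes Stat5a and Stat5b were higher in females by 0.73 and 0.66. Nr1i3, the CAR receptor gene, was lower in females by -2.82 (2.92 against 20.4 CPM), and Onecut1 (HNF6) was higher by 1.89 (52.1 ± 11.6 against 14.1 ± 13.4 CPM), or by 2.60 with limma-voom. Cebpa, at 86.7 and 103 CPM, was not called.

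**Figure D4:**
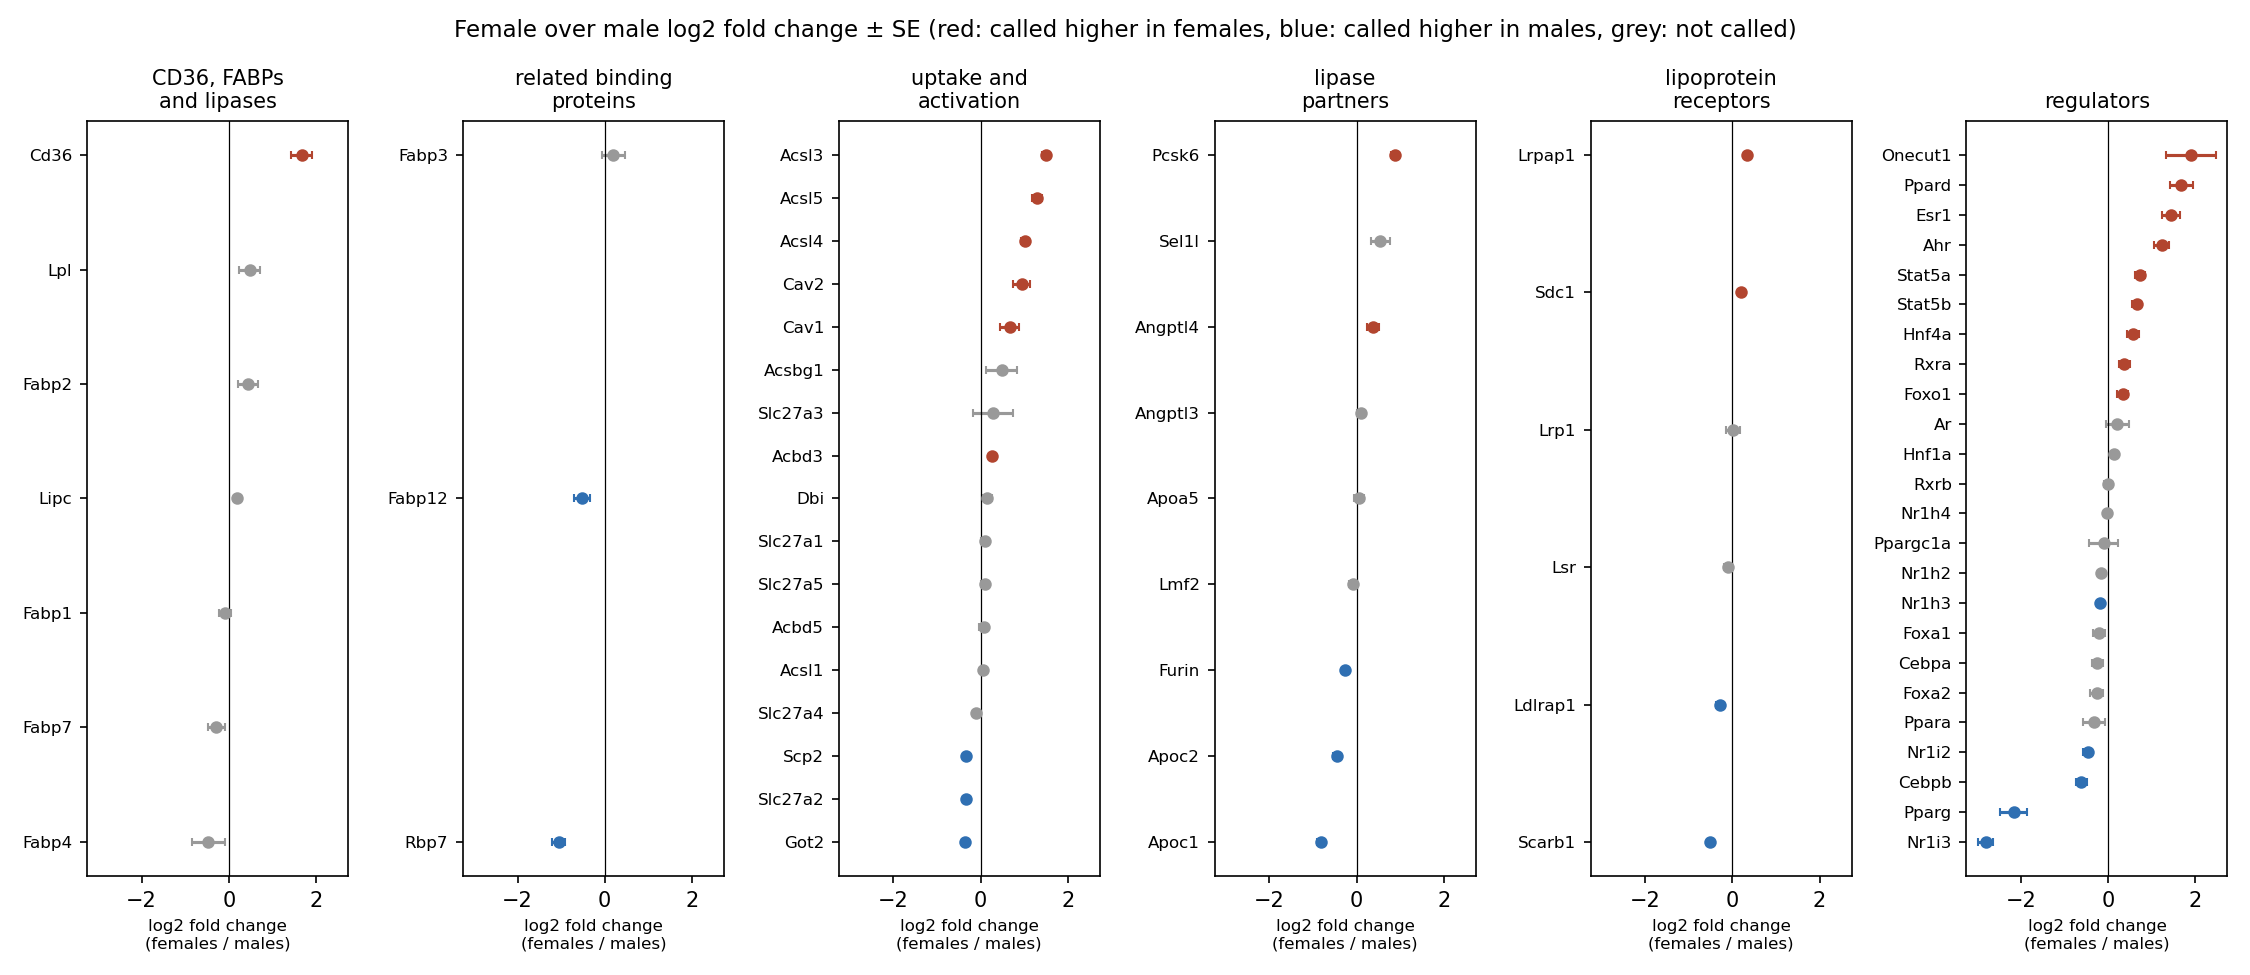
Log2 fold change, females over males (horizontal axis), with the SE as whiskers, for every tested gene of 6 lists (panels), in red where called higher in females, blue where called higher in males and grey where not called. Cd36 at 1.67 is the coloured point among the 7 members, while Acsl3 at 1.49 and Nr1i3 at -2.82 mark the ends of the uptake and regulator panels.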

How the data were processed

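Liver RNA of 12 obese ZSF1 rats had been sequenced from TruSeq libraries, per the labels' protocols, and grouped by the sex in the sample titles. Bowtie2 2.0.2, DESeq and the build rn4 are named in the submitters' processing notes. The counting program, strand setting and treatment of reads with several alignments are not given in these sources, so overlapping and antisense genes cannot be told apart. The authors deposited whole-number read counts per gene symbol with no normalization, and 5 further rows that name no gene (27.1% to 31.7% of counts) were left out.

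Counts were fitted with edgeR 4.0.16 in R 4.3.3 (filterByExpr with minimum count 10 and minimum total 15, TMM, robust quasi-likelihood F test). Standard errors were derived from each fold change and its F statistic (|log2 fold change| / √F). Alternatives were other scalings, DESeq2 1.42.0, limma-voom (limma 3.58.1), other filters, removal of the 20 most abundant genes, and animals left out. Summing Cd36 with its neighbour and recounting the marker lists under each alternative were chosen after seeing the data. The fit was tested on simulated counts of 6 against 6 libraries, with the same dispersion for all genes. It recovered 29.9% of 1.5-fold, 93.9% of 2-fold and 100% of 4-fold changes. A gene not called may thus still differ by a small fold. All 30 same-sex pairs of libraries differed by more than counting noise, with 6.34 as the lowest chi-square per degree of freedom. Pairs with male 4 held 97.1 to 223, pairs with female 12 held 40.9 to 57.3, and the remaining pairs 30.0 at most. Log2 CPM for correlations used a prior count of 2.

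Members, lists and tests were chosen with earlier results of these data known. Genes named were all members, for each list the up to 4 called genes that changed most and the most abundant one not called, and the 3 genes most like each member with a mean of at least 5 CPM. Of the genes this rule gave, not all are described. Slc27a2, Slc27a5, Furin, Gpihbp1, Lipg, Ppara, Hnf4a, Stat5a and Stat5b were added after their values were seen. So were the relatives without counts and the marker genes other than Alb, Mbp, Cidea and Cpa1. Some genes of these lists are not reported here, and the counts leave them out. The GRCr8 gene table gave current names for 15931 of 16478 symbols (96.7%) and the order of Cd36 and its neighbour, and no coordinates were taken from it, since its build differs, and promoter coordinates are those of GRCr8.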

Additional observations from a re-analysis of the deposited data

Results flagged for a closer look

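Single animals stood far from the other 5 of their sex in 12 of 102 groups tested among the named genes (11.8%), where chance flags about 1 in 20, and the genes most like a member share its high or low animal by construction. Among members, Cd36 was at 178 CPM in female 12, where the other females held 91.8 to 119, and Fabp4 was at 3.02 CPM in male 4, where the other males held 0.579 to 1.31. RGD1565355, now Cd36l1, was at 38.4 CPM in female 12 against 22.6 to 27.8, and Ncald was at 39.0 CPM in the same animal against 16.4 to 21.7.

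In male 4, Cav2 was at 7.63 CPM (other males 3.29 to 4.30), Mesdc2 at 29.6 CPM (24.0 to 26.0) and Gab1 at 15.9 CPM (9.49 to 11.6), all above the rest. Cald1 at 165 CPM (225 to 258) and Dync1li2 at 37.7 CPM (46.9 to 50.7) were below the rest in that animal. Ppard was at 14.0 CPM in male 2, above the 7.63 to 9.78 of the other males. In females, Acsl1 was at 3204 CPM in female 13 (2849 to 2979 in the others) and Apoc1 at 1604 CPM in female 8 (1738 to 1808).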

How the results depend on the processing

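The Cd36 difference kept its direction and its call in 22 alternatives (log2 1.52 to 1.84), and Fabp1 and Fabp7 stayed uncalled in the same direction in 21. Lipc was called with upper quartile factors (0.23), library totals (0.22), DESeq2 (0.21), a filter of mean 1 CPM (0.21) and without male 4 and female 12 together (0.19), and ranged from 0.16 to 0.24 with each animal left out. With each animal left out Fabp2 ranged from 0.34 to 0.57, Lpl from 0.30 to 0.64 and Fabp4 from -0.64 to 0.024, and Fabp4 was 0.056 without male 4 and female 12 together. The number of lipid-binding relatives called higher in males was 1 with DESeq2 and with a filter of 1 count, 1 to 2 with an animal left out, and 1 was called higher in females with the filter of 1 count. Lipase partners called higher in females were 1 to 3, and receptors 1 to 2 higher in females and 1 to 2 higher in males, with an animal left out, and receptors higher in males 1 without male 4 and female 12 together. Lrp1 was -0.032 with limma-voom, -0.068 without both animals and -0.16 to 0.10 with an animal left out, and Apoa5 was -0.0072 to 0.14. Counts of all called genes ran from 3855 to 4634, with a median log2 fold change over all genes from -0.016 to 0.015. No paired analysis was possible because the sexes share no animal number. Fabp4 and Lpl, at 7 to 76 counts in a library, are limited by depth.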
